A study of Mus musculus with 8 samples.

Results

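The major urinary protein (Mup) family of the mouse was followed gene by gene and pseudogene by pseudogene in 8 livers. Its members were the rows of the count table whose symbol is Mup or Mup-ps followed by a number. They came to 48 of 46078 rows, 21 of them annotated as genes and 27 as pseudogenes. RNA-seq read counts came from livers of 5 wild-type (WT) mice, Alb_cre- Rbfox2 LoxP/LoxP, and 3 Rbfox2 knockout (Rbfox2 KO) mice, Alb_cre+ Rbfox2 LoxP/LoxP. Both groups carried the floxed alleles, were described as male C57BL6/J mice that were 8 weeks old at the start, and drank 30% (w/v) fructose for 22 weeks beside a control diet. Their livers were taken after fasting. Rbfox2 encodes an RNA-binding regulator of splicing, and a Cre driven by the albumin promoter removes it from hepatocytes but not from the other cells of the liver. The comparison addresses what the loss of Rbfox2 changes in the liver transcriptome.

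Major urinary proteins are small secreted lipocalins, barrel-shaped proteins that bind volatile pheromones. Hepatocytes make them, the kidney passes them into urine, and males make far more than females because pulses of growth hormone act on the liver through STAT5. Mup20 encodes darcin, a male pheromone, while Mup4 and Mup5 are known from nasal and salivary or lacrimal tissue. The genes lie in a tandem array in which most are paired with a pseudogene facing the other way.

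In GRCm38, 47 of the 48 members lay in 2.19 Mb of chromosome 4, between 59956804 and 62150863, and the processed pseudogene Mup-ps22 lay on chromosome 11. Of the genes, 20 were on the minus strand and 1, Mup6, was on the plus strand. Of the chromosome 4 pseudogenes, 20 were on the plus strand and 6 on the minus strand. Among the plus-strand ones, 16 were unprocessed copies, and 13 of those began between 12 and 16 kb after the start of a minus-strand gene.

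Reads of these libraries were 100 bases long, so each annotated transcript was divided into all its 100-base windows to see how much of it a read could place. A window was called private where no other gene of the annotation held it. For 15 genes, Mup1, Mup2 and Mup7 to Mup19, under 50% of the windows were private, with a range of 0% for Mup19 to 44.3% for Mup1. These 15 are called the near-identical genes below. Their coding sequences matched one another at a median of 99.1% of aligned positions over 105 pairs, with a lowest value of 98.3%. Mup3 matched them at a median of 83.0%, Mup21 at 84.2%, Mup20 at 90.7%, and Mup4, Mup5 and Mup6 at 88.8% to 90.3%. Private windows made up 97.8% of Mup3, 98.7% of Mup5, 95.5% of Mup21, 61.2% of Mup20, and 100% of Mup4 and Mup6.

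The difference is visible in 1 stretch of coding exon 4. The Mup2 stretch, at chr4:60137638-60137737 on the minus strand, occurs letter for letter in 14 of the 21 genes, that is in all near-identical genes but Mup17. Mup3, at chr4:62085215-62085314, and Mup20, at chr4:62051912-62052011, differ from it at 9 and 10 positions. Capitals mark the bases that differ from the Mup2 stretch, and all are written on the transcript strand from the GENCODE M21 transcripts.
Mup2: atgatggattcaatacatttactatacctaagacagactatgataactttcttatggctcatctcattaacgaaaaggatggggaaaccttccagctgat
Mup3: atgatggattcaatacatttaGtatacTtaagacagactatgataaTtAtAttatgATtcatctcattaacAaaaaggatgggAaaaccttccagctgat
Mup20: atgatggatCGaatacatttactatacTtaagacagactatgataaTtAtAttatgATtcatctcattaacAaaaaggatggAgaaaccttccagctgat
A read that falls in the first of these stretches cannot on its own be given to 1 gene, whereas the stretches of Mup3 and Mup20 were each found in the transcripts of 1 gene only, letter for letter, over the whole annotation. How the authors counted reads with several alignments was not stated. Mup19 had no private window and still carried 3715314 counts over the 8 livers, so counts were present where no single 100-base read could decide between copies. Values of single near-identical genes are therefore uncertain as to the copy, while Mup3, Mup5 and Mup21 are less so. The sum of the near-identical genes depends less on the copy. A read counted at more than 1 copy would, however, enter this sum and the family total more than once. Whether this happened was not tested.

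The 48 members together took 6.71% to 35.5% of all counts, a 5.29-fold range between livers. The shares were 17.9%, 21.8%, 35.5%, 24.6% and 17.99% in WT 1 to WT 5 and 6.71%, 23.1% and 24.8% in Rbfox2 KO 1 to Rbfox2 KO 3. Rbfox2 KO 1 was the lowest liver and WT 3 the highest, and the other Rbfox2 KO livers lay inside the WT range. WT livers averaged 23.6% ± 7.24 (SD, n = 5) and Rbfox2 KO livers 18.2% ± 9.99 (SD, n = 3). The difference of -5.35 percentage points was smaller than the spread within either group, and without Rbfox2 KO 1 it was 0.398 points. Counting error was small beside this spread, since the 95% Wilson interval of each share was at most 0.0318 points wide.

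**Figure D1:**
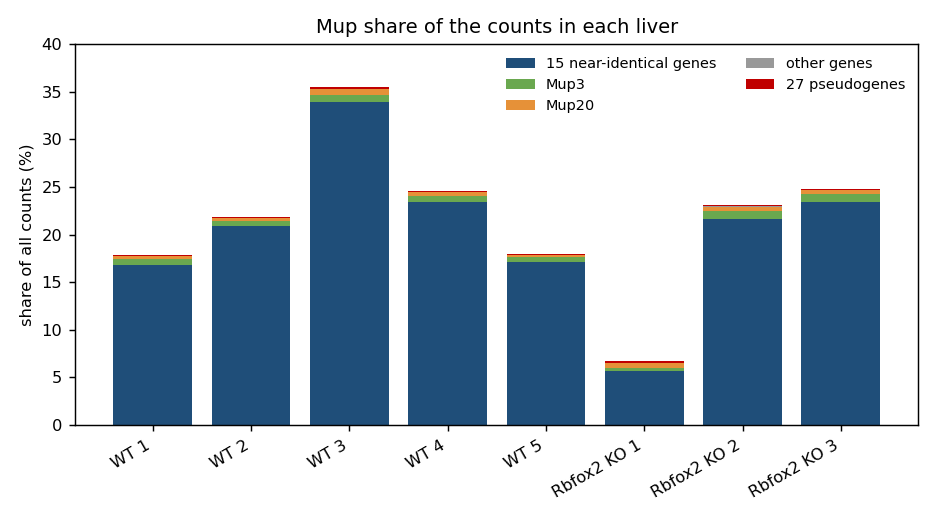
Share of all counts (percent, vertical axis) taken by the Mup members in each of the 8 livers (horizontal axis), divided by colour into the 15 near-identical genes, Mup3, Mup20, the other genes and the 27 pseudogenes. The bars run from 6.71% in Rbfox2 KO 1 to 35.5% in WT 3, the near-identical genes fill nearly all of each bar, and the pseudogenes are a thin cap.

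The TMM scaling factors, which set the effective library size, ran from 0.821 in WT 3 to 1.28 in Rbfox2 KO 1. These 2 livers were thus at the ends here too. Computed without the Mup members, the factors ran from 0.947 to 1.07, but they then apply to totals that leave these members out. The ranges are therefore not directly comparable. The median log2 fold change (Rbfox2 KO minus WT) of the tested members was -0.56 under either scaling. Total counts ran from 24829693 in Rbfox2 KO 1 to 37823155 in Rbfox2 KO 3. Sums of pancreas, hepatocyte, Kupffer cell and stellate cell markers were at an end of their range in Rbfox2 KO 1 and in no case in WT 3. The summed level of 14 exocrine pancreas markers was 492 CPM (counts scaled to library size) in Rbfox2 KO 1 and 4.88 to 17.9 CPM in the other livers. The summed level of 8 hepatocyte markers was 66530 CPM in Rbfox2 KO 1 and 73986 to 81483 CPM in the others. Alb made up most of it, with 49086 CPM in Rbfox2 KO 1. Alb, Ttr and Cyp2e1 were lowest of all livers there, while Apoa1, Cps1, Asgr1, Tat and Pck1 were not. Skeletal muscle markers, 11 genes, summed to 8.88 to 377 CPM in the WT livers, with 236, 1.38 and 7.35 CPM in Rbfox2 KO 1 to 3. The 8 Kupffer cell and 7 stellate cell markers summed to 347 and 262 CPM in Rbfox2 KO 1. In the other livers these sums were 242 to 325 and 143 to 205 CPM. Single Kupffer cell markers went both ways, with Cd5l, C1qa and C1qb highest and Timd4 lowest in Rbfox2 KO 1. All markers of these lists had counts, and their part in the Mup differences was not tested. In bulk liver RNA, fewer cells of a type and less RNA per cell cannot be told apart. Rbfox2 itself averaged 18.9 ± 3.39 CPM (SD, n = 5) without the Cre and 9.27 ± 2.83 CPM (SD, n = 3) with it, and the groups did not overlap. Markers of the Y chromosome had counts in all 8 livers.

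Most of the family's counts belonged to the near-identical genes. They held 95.2% ± 0.596 (SD, n = 5) of Mup counts in WT, and 84.04%, 93.8% and 94.2% in Rbfox2 KO 1, 2 and 3. Single copies had mean shares between 1.61% for Mup17 and 9.68% for Mup2, followed by Mup10 with 9.20%. No copy led everywhere. Mup2 had the most counts in 3 livers (WT 1, WT 5 and Rbfox2 KO 1), Mup10 in 3 (WT 3, WT 4 and Rbfox2 KO 2), Mup13 in WT 2 and Mup14 in Rbfox2 KO 3. Mup17 had the fewest counts of the 15 in 8 of 8 livers.

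Because annotated exon lengths differ, levels of different copies were compared as CPM per kilobase (kb) of exon. On that scale Mup13 came first with a mean of 16694 ± 9395 (SD, n = 8), and Mup8 with 16028, Mup2 with 15426, Mup18 with 15142, Mup10 with 14652 and Mup19 with 14624 followed. The gaps between these means were smaller than the spread of Mup13 over livers. These copies rose and fell together across livers, so this spread does not show whether they differ within a liver. Mup3 had 5858 ± 2079, Mup20 had 4480 ± 1885 and Mup17 had 4317 ± 3337 CPM per kb (SD, n = 8). Below them came Mup-ps19 with 2450 ± 997, Mup-ps17 with 995 ± 489, Mup21 with 241 ± 157 and Mup5 with 37.3 ± 18.9 CPM per kb (SD, n = 8). Every other member with a mean of at least 1 CPM had a mean of at most 7.43 CPM per kb, which was that of Mup-ps16. In Rbfox2 KO 1 the leading copy per kb was not a near-identical gene but Mup20, with 4949 CPM per kb.

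**Figure D2:**
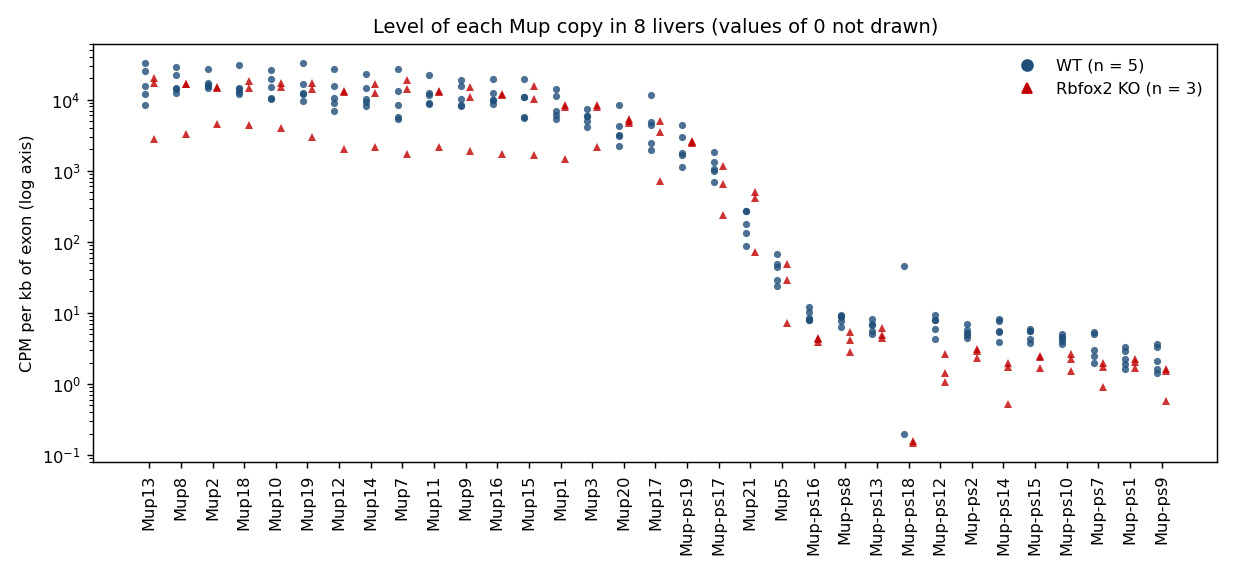
Level of each member with a mean of at least 1 CPM (33 members, horizontal axis, ordered by mean) in CPM per kb of exon on a log axis, with a circle for each WT liver and a triangle for each Rbfox2 KO liver. The copies fall from 16694 CPM per kb for Mup13 to a few CPM per kb for the plus-strand pseudogenes, and the triangle of Rbfox2 KO 1 lies below the other points for the near-identical genes but not for Mup20 and Mup-ps19.

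At the other end, Mup4 had 51 counts over the 8 livers and reached 0.923 CPM at most, and Mup6 had 0.282 to 1.26 CPM. Both have their windows to themselves, so these low values do not rest on shared reads. Among the 27 pseudogenes, 4 (Mup-ps5, Mup-ps24, Mup-ps26 and Mup-ps29) had no count in any liver. A count of 0 allows up to 3 counts, or 0.0838 to 0.118 CPM by liver.

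Promoter windows, 250 bases before to 50 bases after the RefSeq start, were found for 14 of the 21 genes in the RefSeq table of GRCm38.p6. The part before the start is shown for 3 near-identical genes, for Mup3 and Mup21, and for Mup4 and Mup6, to set copies with high and low liver levels side by side. Capitals mark the run TATATAA, which was looked for after the sequences had been seen. The stretches are chr4:60139857-60139992 for Mup2, chr4:60582156-60582292 for Mup10, chr4:61782225-61782359 for Mup19, chr4:62087318-62087400 for Mup3, chr4:62150842-62150918 for Mup21 and chr4:59960668-59960771 for Mup4, all on the minus strand, and chr4:60003379-60003480 on the plus strand for Mup6.
Mup2: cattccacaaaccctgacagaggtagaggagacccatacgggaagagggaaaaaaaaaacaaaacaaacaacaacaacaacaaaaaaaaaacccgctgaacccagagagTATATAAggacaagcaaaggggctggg
Mup10: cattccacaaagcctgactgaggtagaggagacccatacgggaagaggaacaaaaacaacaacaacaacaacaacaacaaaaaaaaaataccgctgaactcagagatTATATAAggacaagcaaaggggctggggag
Mup19: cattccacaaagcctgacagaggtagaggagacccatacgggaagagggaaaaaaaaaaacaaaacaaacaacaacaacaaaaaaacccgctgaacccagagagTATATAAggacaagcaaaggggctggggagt
Mup3: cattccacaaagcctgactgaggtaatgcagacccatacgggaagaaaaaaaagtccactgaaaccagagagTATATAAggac
Mup21: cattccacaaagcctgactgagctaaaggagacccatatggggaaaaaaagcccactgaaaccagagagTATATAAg
Mup4: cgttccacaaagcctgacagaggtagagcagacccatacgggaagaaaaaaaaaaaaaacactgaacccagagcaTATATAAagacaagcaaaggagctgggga
Mup6: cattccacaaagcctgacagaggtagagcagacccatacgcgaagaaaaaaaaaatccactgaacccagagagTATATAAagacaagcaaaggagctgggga
TATATAA was in 13 of the 14 Mup windows and in 3.24% of all 32851 promoter windows of the table, both strands counted. It began between 8 and 31 bases before the annotated start in the stretches found. In Mup4 and Mup6 it was followed by AG and in the other 11 windows by GG. TATAAA, a form of the TATA box, was therefore in the Mup4 and Mup6 windows alone among the 14, against 13.6% of all windows. Its absence from a window does not show that the window has no TATA box. The STAT5 motif TTCNNNGAA was in 0 of the 14 windows (8.30% of all) and the C/EBP motif TTATGCAAT in 0 (0.113%). These are matches of letters in short windows and say nothing of binding.

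Between the genotypes, no Mup gene passed the test. The test was the quasi-likelihood F test of edgeR over all 14654 genes that passed a filter on low counts, with the Benjamini-Hochberg adjusted p at 0.05, and it called 0 genes of any kind (0.0% of those tested). At an unadjusted p under 0.05 it gave 694 genes (4.74%), and limma-voom gave 0 adjusted calls (0.0%). DESeq2 called 59 (0.403%). Rbfox2, the deleted gene, was not called by edgeR, with a log2 fold change (Rbfox2 KO minus WT) of -1.03 and an edgeR adjusted p of 0.328. A missing edgeR call thus does not show that a gene was unchanged. Of the 21 Mup genes, 20 were tested, and 0 passed the adjusted threshold of edgeR, DESeq2 or limma-voom. At an unadjusted p under 0.05 there were 0 with edgeR and 1, Mup2, with DESeq2 (DESeq2 adjusted p = 0.973). The median log2 fold change (Rbfox2 KO minus WT) of the 20 was -0.45, beside 0.00 for all genes tested.

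The near-identical genes all had values below 0, from -0.71 for Mup17 to -0.02 for Mup7, with standard errors (SE) of 0.38 to 0.79. Mup2 had the smallest p of the genes. Its levels were 20949, 22842, 35477, 21117 and 19348 CPM in WT 1 to 5 with 5973, 19750 and 19417 CPM in Rbfox2 KO 1 to 3. The groups overlapped, and a log2 fold change of -0.67 ± 0.38 (SE) had an edgeR adjusted p of 0.9999. Without Rbfox2 KO 1 it was -0.29. Since these genes share most of their windows, their 15 negative values are not 15 separate observations.

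The 5 tested genes outside this set had values on both sides of 0. Mup3 had 6350, 5317, 7988, 6217 and 4462 CPM in WT 1 to 5 and 2336, 8388 and 8991 CPM in Rbfox2 KO 1 to 3. Rbfox2 KO 1 was the lowest of the 8 and the other 2 Rbfox2 KO livers were the highest. Its log2 fold change was 0.12 ± 0.38 (SE, edgeR adjusted p = 0.9999). Mup20 had 0.25 ± 0.37, Mup21 had 0.84 ± 0.63, Mup5 had -0.59 ± 0.61 and Mup6 had -0.29 ± 0.42 (SE), with the groups overlapping in each and an edgeR adjusted p of 0.9999. As a ratio chosen after the values were seen, Mup3 counts were 22.5% to 30.3% of Mup2 counts in WT and 39.1%, 42.5% and 46.3% in the Rbfox2 KO livers, with no overlap. Mup2 counts are uncertain as to the copy, and as a share of all Mup counts Mup3 overlapped between the groups, with 1.85% to 3.52% in WT and 4.47%, 3.43% and 3.43% in Rbfox2 KO 1 to 3.

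**Figure D3:**
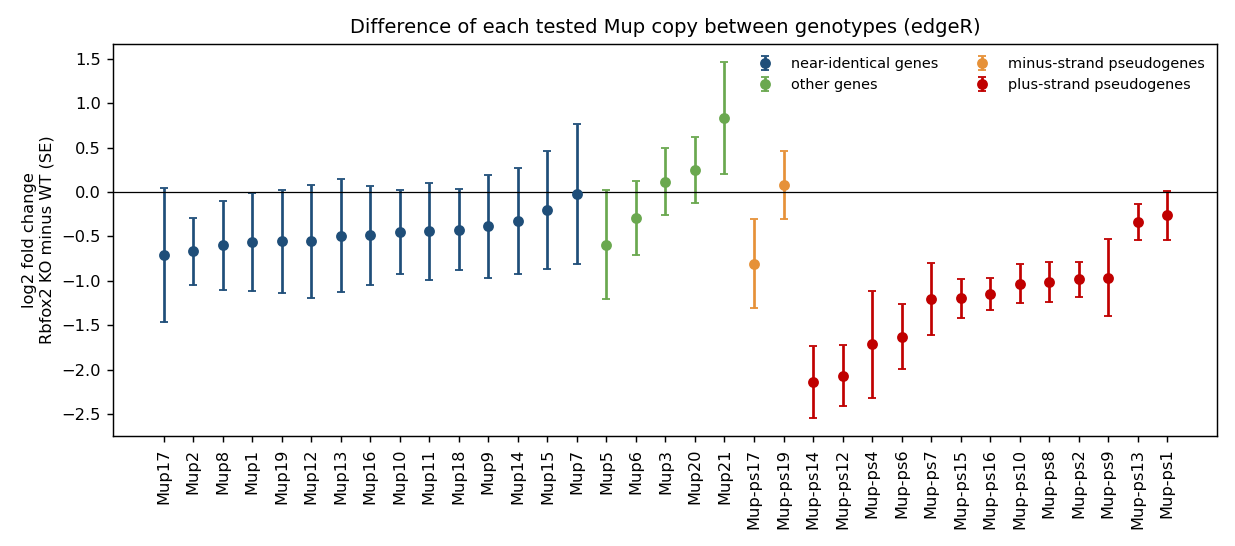
Log2 fold change between Rbfox2 KO and WT (vertical axis, bars are SE) for the 35 tested Mup members (horizontal axis), coloured as near-identical genes, other genes, minus-strand pseudogenes and plus-strand pseudogenes. The near-identical genes lie between -0.71 and -0.02 with wide bars, the other genes lie on both sides of 0, and the plus-strand pseudogenes reach -2.14 with narrower bars.

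Pseudogenes took 0.499% to 0.725% of Mup counts in the WT livers, and 2.59%, 0.661% and 0.561% in Rbfox2 KO 1, 2 and 3. WT livers averaged 0.605% ± 0.0885 (SD, n = 5) and Rbfox2 KO livers 1.27% ± 1.14 (SD, n = 3), and the difference was 0.665 points, or 0.00651 points without Rbfox2 KO 1. Mup-ps19 gave 83.8% of all pseudogene counts, and with Mup-ps17 it gave 97.9%. Mup-ps17 has 218 exon bases and shares 33.6% of its windows with other Mup members, most often with Mup10 (21.8%). Reads of the genes could thus be counted for it, which was not tested. The remaining 25 pseudogenes held 0.00643% to 0.0316% of Mup counts in each liver. Per kb of exon, the plus-strand pseudogenes had means of at most 7.43 CPM and the near-identical genes of at least 4317 CPM.

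Mup-ps19 resembled Mup20 in sequence and in level. This unprocessed pseudogene of the minus strand shares 76.7% of its windows with Mup20. The exon 2 stretch of Mup20 at chr4:62053514-62053613 is identical in Mup-ps19 at chr4:61959376-61959475, and among the members only these 2 hold it. Mup3, at chr4:62086834-62086933, differs from it at 20 of 100 positions, which are in capitals.
Mup20: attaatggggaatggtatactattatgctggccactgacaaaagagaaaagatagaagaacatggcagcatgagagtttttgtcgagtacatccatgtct
Mup-ps19: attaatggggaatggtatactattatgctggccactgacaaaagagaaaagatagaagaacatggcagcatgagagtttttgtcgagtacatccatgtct
Mup3: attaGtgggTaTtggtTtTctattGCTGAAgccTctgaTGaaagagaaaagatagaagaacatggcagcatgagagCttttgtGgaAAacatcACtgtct
Mup-ps19 counts were 27.6% to 38.7% of Mup20 counts in all 8 livers. The reads of this pair can thus be mixed by the counting.

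Both were out of step with the rest of the family in the lowest liver. Mup20 had 2816, 2912, 7730, 3941 and 2036 CPM in WT 1 to 5 and 4593, 4889 and 4344 CPM in Rbfox2 KO 1 to 3. In Rbfox2 KO 1, Mup20 stood at 158% and Mup-ps19 at 138% of the WT median, while the near-identical genes stood at 15.7% to 30.9%, Mup5 at 16.4%, Mup-ps17 at 22.8%, Mup3 at 37.6% and Mup21 at 41.1%. Mup20 took 8.79% of Mup counts there, against 1.28% to 1.997% in the other 7 livers. In WT 3, the highest liver, Mup20 and Mup-ps19 were high with the others, at 265% and 248% of the WT median. The ratio of Mup20 to Mup3 counts was 1.97 in Rbfox2 KO 1 and 0.444 to 0.968 in the other livers.

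The larger negative differences in Rbfox2 KO belonged to the plus-strand pseudogenes of the array. Of the 16 unprocessed ones, 13 were tested, and all 13 had a negative log2 fold change, with a median of -1.15. An unadjusted edgeR p under 0.05 was found for 11 of them, against 2.33% of all genes tested that were lower at that p. For 9 of them every Rbfox2 KO liver lay below every WT liver, against 1.82% of all genes tested (1.89% the other way and 3.71% in all). DESeq2 called 8 of them lower (0.252% of all genes), while edgeR and limma-voom called 0. No pseudogene passed the main test, and members of this group share windows, so the 13 are not separate observations.

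**Figure D4:**
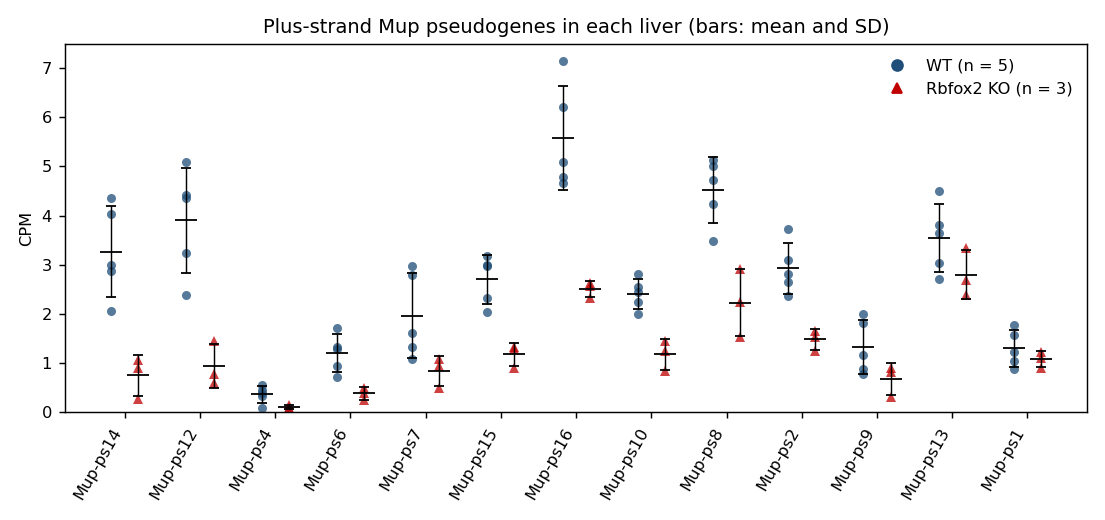
CPM (vertical axis) of the 13 tested plus-strand pseudogenes in each WT liver (circles, n = 5) and each Rbfox2 KO liver (triangles, n = 3), with the mean and SD of each group as bars. For 9 of the 13 every triangle lies below every circle, and Mup-ps1, Mup-ps4, Mup-ps9 and Mup-ps13 overlap.

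Mup-ps16 had the smallest p of the family. It had 6.20, 7.14, 5.09, 4.78 and 4.67 CPM in WT 1 to 5 and 2.32, 2.63 and 2.57 CPM in Rbfox2 KO 1 to 3. All 3 Rbfox2 KO livers lay below the lowest WT liver. Its log2 fold change of -1.15 ± 0.18 (SE) had an edgeR adjusted p of 0.138 and a DESeq2 adjusted p of 3.73e-05. The counts behind these levels were 137 to 221 in WT and 67 to 92 in Rbfox2 KO. Mup-ps16 overlaps exons of Gm13775, a noncoding gene on the same strand that is no member and had a log2 fold change of -1.23 ± 0.26 (SE, edgeR adjusted p = 0.373).

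Mup-ps12 had a larger difference. Its levels were 4.43, 3.23, 5.09, 4.37 and 2.39 CPM in WT 1 to 5 and 0.784, 1.45 and 0.587 CPM in Rbfox2 KO 1 to 3. The groups did not overlap, and the log2 fold change was -2.07 ± 0.34 (SE, edgeR adjusted p = 0.202). Mup-ps14, which shares 41.6% of its windows with Mup-ps12, had 4.35, 2.87, 4.04, 3.003 and 2.07 CPM in the WT livers, against 0.909, 1.06 and 0.279 CPM. Its log2 fold change was -2.14 ± 0.40 (SE, edgeR adjusted p = 0.289). DESeq2 called both, with adjusted p of 9.66e-06 and 7.07e-05.

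The other pseudogenes that DESeq2 called were Mup-ps2, Mup-ps6, Mup-ps8, Mup-ps10 and Mup-ps15, with log2 fold changes of -0.98, -1.63, -1.01, -1.04 and -1.20 and edgeR adjusted p of 0.289 to 0.381. Mup-ps7 did not overlap between groups either, with -1.21 ± 0.40 (SE), and was called by no tool. Mup-ps9 had -0.96 ± 0.43 and Mup-ps4 had -1.72 ± 0.60 (SE), with overlap in both, and Mup-ps4 had at most 0.562 CPM in any liver. Mup-ps13 and Mup-ps1 were closest to 0, with -0.34 ± 0.20 and -0.27 ± 0.27 (SE). Of the 3 that were not tested, Mup-ps3 and Mup-ps11 had 49 counts each in total, are identical in all windows, and had equal counts in 6 of 8 livers. Mup-ps5 had none. Gm21286, an unprocessed pseudogene in the same array that shares windows with several of them but does not carry a Mup symbol, averaged 1.93 ± 0.438 CPM (SD, n = 5) in WT livers against 0.528 ± 0.0244 CPM (SD, n = 3) in Rbfox2 KO livers. Its log2 fold change was -1.86 ± 0.25 (SE, edgeR adjusted p = 0.115). Gm13773, a noncoding gene without a Mup symbol, overlaps exons of Mup-ps6 on the same strand. It had a log2 fold change of -0.28 ± 0.32 (SE, edgeR adjusted p = 0.9999), and its groups overlapped.

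Without Rbfox2 KO 1, the liver with the low family share, all 13 log2 fold changes were still negative, but several were smaller. Mup-ps15 had -1.05, Mup-ps8 had -0.81, Mup-ps7 had -0.94, Mup-ps6 had -1.40, Mup-ps9 had -0.62 and Mup-ps1 had -0.16, and the last 2 were thus smaller by over 1.5 times. Mup-ps4 had -2.10. Over all such fits Mup-ps16 stayed between -1.21 and -1.05, Mup-ps12 between -2.50 and -1.81, and Mup-ps14 between -2.47 and -1.73. No edgeR call was made in any of them.

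The same exon 4 stretch shows how the pseudogenes stand to the genes. It is given for some of the pseudogenes that DESeq2 called (Mup-ps12, Mup-ps14, Mup-ps16 and Mup-ps2) and for those with the smallest differences (Mup-ps13 and Mup-ps1). Capitals mark where a base of these pseudogenes differs from the Mup2 stretch printed above. They lie at chr4:61454209-61454308, chr4:61610240-61610339, chr4:61799494-61799593, chr4:60157223-60157322, chr4:61536229-61536328 and chr4:60087833-60087932, in this order and on the plus strand.
Mup-ps12: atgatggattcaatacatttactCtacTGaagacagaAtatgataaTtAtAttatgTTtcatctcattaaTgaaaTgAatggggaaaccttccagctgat
Mup-ps14: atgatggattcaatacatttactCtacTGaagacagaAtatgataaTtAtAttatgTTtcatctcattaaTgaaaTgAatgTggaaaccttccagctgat
Mup-ps16: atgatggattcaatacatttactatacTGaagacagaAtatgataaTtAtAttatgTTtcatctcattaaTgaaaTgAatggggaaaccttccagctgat
Mup-ps2: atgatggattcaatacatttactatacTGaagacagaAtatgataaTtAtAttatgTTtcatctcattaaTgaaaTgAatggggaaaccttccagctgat
Mup-ps13: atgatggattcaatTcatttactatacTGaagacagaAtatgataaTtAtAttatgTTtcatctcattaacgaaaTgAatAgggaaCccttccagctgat
Mup-ps1: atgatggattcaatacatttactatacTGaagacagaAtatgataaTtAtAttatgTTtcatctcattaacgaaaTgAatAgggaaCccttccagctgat
All 6 differ from Mup2 at 11 to 13 of 100 positions, and 10 of these differences are common to the 6. Their reads are therefore separable from those of the near-identical genes here, though less so from each other, and between 0% and 75.8% of the windows of the 13 tested ones were private. The stretch common to Mup-ps16 and Mup-ps2 was held by 8 genes of the annotation. Among them were Mup-ps9 and Gm13773, whose groups overlapped. In RefSeq, the first annotated start of Mup-ps12 lies 756 bases from the start of Mup15 on the opposite strand, that of Mup-ps15 lies 1028 bases from Mup18, and that of Mup-ps16 lies 707 bases from Mup19. In GENCODE the same pseudogenes begin 12501, 24705 and 15213 bases from these genes. RefSeq classes Mup-ps12 and Mup-ps16 as protein coding and Mup-ps15 as a long noncoding RNA. The word pseudogene thus follows GENCODE here.

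Of the minus-strand pseudogenes, Mup-ps17 had a log2 fold change of -0.81 ± 0.50 and Mup-ps19 of 0.08 ± 0.38 (SE), both with an edgeR adjusted p of 0.9999. Mup-ps18 was found in 1 liver. It had 816 counts, or 24.1 CPM, in WT 5 and 0 to 3 counts in each other liver, and all its windows are private. Mup-ps20, Mup-ps21 and Mup-ps23 stayed at or under 0.118 CPM, as did the processed copies Mup-ps22 and Mup-ps28.

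Across livers, each of the 33 members with a mean of at least 1 CPM was set against the sum of the other members as log2(CPM + 0.5), with exact permutation tests over 8 livers and adjustment over the 33. The near-identical genes followed the sum closely, with Pearson r from 0.949 for Mup2 to 0.990 for Mup19 and adjusted p of 0.00164 to 0.0164. Spearman's rho was 0.643 for Mup2 (exact permutation adjusted p = 0.144) and 0.976 for Mup19 (exact permutation adjusted p = 0.00627). Without the 2 livers farthest from the median of the sum, Rbfox2 KO 1 and WT 3, r fell to 0.0735 for Mup2 but was 0.908 for Mup19, so the relation of Mup2 rested on these livers. Among themselves the 15 had a median r of 0.947 over 105 pairs, and shared reads enter these values.

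Members with sequence of their own followed less closely. Mup3 had an r of 0.908 and a rho of 0.786 (exact permutation adjusted p = 0.0122 and 0.0512), with 0.722 when the 2 livers were left out. Mup21 had an r of 0.748 and a rho of 0.833 (exact permutation adjusted p = 0.0241 and 0.0338), with 0.907 without them. Mup5 had an r of 0.894 and a rho of 0.643 (exact permutation adjusted p = 0.0184 and 0.144), but 0.114 without them, so that its relation rested on them.

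Mup20 had an r of 0.284 and a rho of 0.524 (exact permutation adjusted p = 0.518 and 0.260), yet an r of 0.955 without Rbfox2 KO 1. Mup-ps19 behaved alike, with an r of 0.384 and a rho of 0.786 (exact permutation adjusted p = 0.404 and 0.0512) and with 0.957 without Rbfox2 KO 1. The r between the 2 was 0.966. For both, then, a single liver separated them from the family. Mup-ps17 had an r of 0.918 and a rho of 0.643 (exact permutation adjusted p = 0.00999 and 0.144), but 0.337 without the 2 livers.

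Correlations of the plus-strand pseudogenes with the genes were lower. These pseudogenes had mean levels of at most 4.43 CPM, where counting noise can lower r, which was not tested. With the near-identical genes they had a median r of 0.624 over 165 pairs, and among themselves one of 0.827 over 55 pairs. As deviations from the mean of each genotype, a measure chosen after the data were seen, the medians were 0.643 and 0.521, so that the higher value among the pseudogenes was not present within genotypes. Against the sum, Mup-ps10, Mup-ps14 and Mup-ps16 had the lowest r of them, 0.225, 0.309 and 0.391, and negative values of -0.62, -0.51 and -0.50 without the 2 livers (exact permutation adjusted p of all 3 between 0.434 and 0.626). Mup-ps9 had the highest, 0.846, with a rho of 0.786 (exact permutation adjusted p = 0.0176 and 0.0512).

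**Figure D5:**
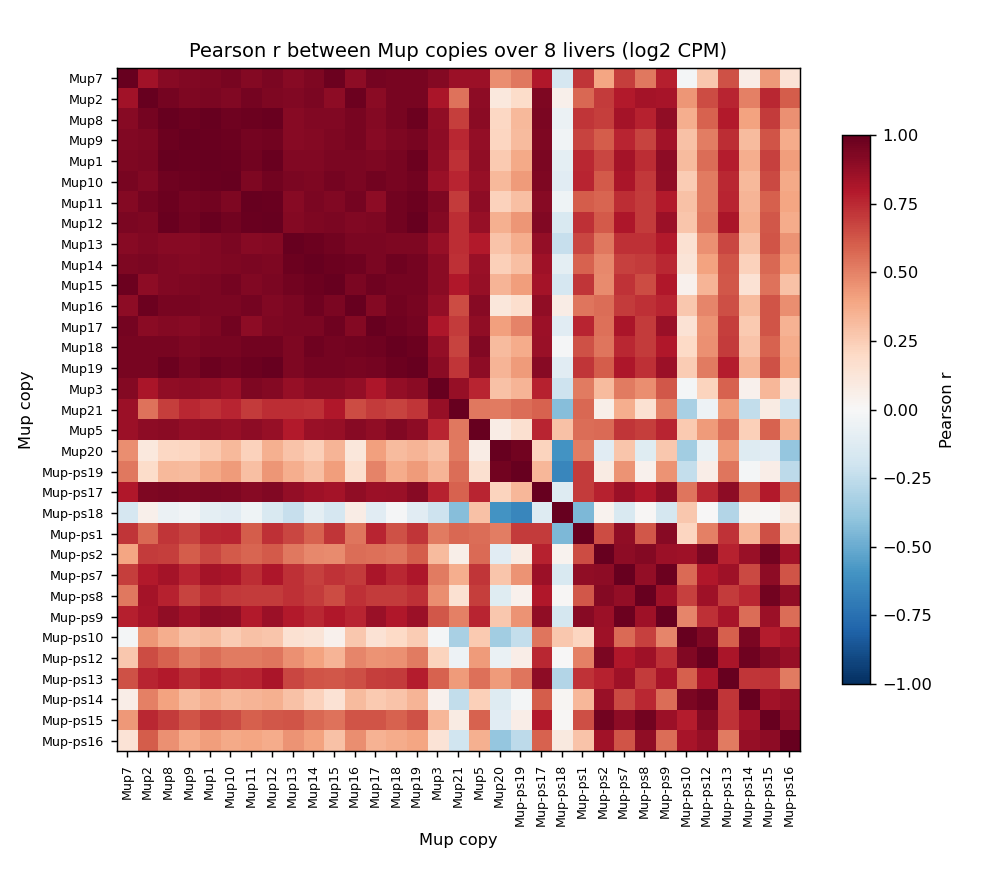
Pearson r of log2(CPM + 0.5) between each pair of the 33 members over 8 livers (both axes list the members, colour gives r from -1 to 1). The near-identical genes form a dark block with a median of 0.947, Mup20 and Mup-ps19 pair with each other at 0.966 and are pale against that block, and the plus-strand pseudogenes form a second block with a median of 0.827, which was 0.521 for deviations from the genotype means.

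Outside the family, the genes most like its sum were taken among 6579 genes with a mean of at least 10 CPM, as a description without a test. The 10 with the highest r over the 8 livers were Srp68, mt-Rnr2, Nadk2, Ces1d, Mapk15, Ugt2b36, Cyp2d9, Dirc2, Susd4 and Deptor, with r of 0.964 to 0.951. Cyp2d9, a male-biased cytochrome P450, ran from 148 CPM in Rbfox2 KO 1 to 839 CPM. Ces1d, a liver carboxylesterase, ran from 426 to 966 CPM, and mt-Rnr2, a mitochondrial ribosomal RNA, from 1874 to 4587 CPM. Without Rbfox2 KO 1 the r of these 10 was 0.797 to 0.930. The 5 with the lowest r were Midn, Hspb8, Lztr1, Tubb2b and Tmem176a, with -0.954 to -0.946.

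At the level of RNA, no listed gene of the signalling around the family passed a test. Protein activity was not measured. Of 12 growth hormone signalling genes, 12 were tested and 0 were called by edgeR or DESeq2, with a median log2 fold change of 0.08. Stat5a, a transcription factor of this pathway, had -0.29 ± 0.17 and Igfbp3, a carrier of insulin-like growth factors, had 0.41 ± 0.22 (SE, edgeR adjusted p = 0.9999 for both). Of 12 genes reported to regulate Mup expression, 12 were tested and 0 were called, with a median of -0.06. Among them Zhx2, a transcription factor, had -0.17 ± 0.12, and Ppargc1a, a coactivator induced by fasting, had 0.37 ± 0.24 (SE, edgeR adjusted p = 0.9999 for both).

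Other sex-biased genes gave 0 calls by either tool too. Of 18 male-biased liver genes, 16 were tested, with a median of 0.03, and of 19 female-biased ones, 15 were tested, with a median of 0.04. The male-biased genes summed to 3768 to 6841 CPM in the WT livers, with 3270, 6467 and 6254 CPM in Rbfox2 KO 1, 2 and 3, so that Rbfox2 KO 1 was the lowest of the 8 there as well. The female-biased genes summed to 158 to 284 CPM in the WT livers. They had 134, 250 and 194 CPM in Rbfox2 KO 1, 2 and 3, and Rbfox2 KO 1 was again the lowest. These sums follow the most abundant genes, and single genes of both lists went both ways in Rbfox2 KO 1. The female-biased Cyp3a16 was highest there, with 3.14 CPM against 0.351 to 2.59 CPM in the other livers. Elovl3, a male-biased fatty acid elongase, had -0.48 ± 0.36, and Cux2, a female-biased transcription factor, had 1.87 ± 0.68 (SE, edgeR adjusted p = 0.9999 and 0.932). The value of Cux2 came from 1 liver, Rbfox2 KO 3, with 2.96 CPM against 0.177 to 0.443 CPM in all others.

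Of 13 other lipocalin family genes, 10 were tested and 0 were called by edgeR or DESeq2, with a median of 0.15. Lcn2, an acute-phase lipocalin, had 0.80 ± 0.42 and Apom, a lipocalin of lipoproteins, had 0.24 ± 0.13 (SE, edgeR adjusted p = 0.9999 for both). Of 24 abundant proteins secreted by hepatocytes, 24 were tested and 0 were called, with a median of 0.04. Their sum was 133190 to 156124 CPM in the WT livers, with 132791, 153335 and 149094 CPM in Rbfox2 KO 1 to 3 and the groups overlapped.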

How the data were processed

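Gene counts of poly(A)-selected, 100-base paired-end libraries were analysed for 8 livers, grouped by their sample labels. The authors deposited unnormalised counts of reads for each Ensembl gene. Per the submitters' processing notes, the authors used CASAVA 1.8.4, aligned reads with TopHat2 2.0.11 to GRCm38 (mm10) and counted with featureCounts, and the study describes the alignment as strand-specific. Use of strand in counting and the handling of multi-mapped reads are not given in the sources used here, so counts of overlapping or near-identical genes are uncertain. For differential expression the study names both DESeq2 and edgeR-voom-limma.

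Symbols were taken from GENCODE M21, which matched 45143 of 46078 rows, with 0 sample columns left over. It holds 49 Mup symbols, and Mup22 was not analysed here. Genes were filtered with filterByExpr and scaled by TMM. Genotype was tested with edgeR 4.0.16 (R 4.3.3) by its robust quasi-likelihood F test, with Benjamini-Hochberg adjustment at 0.05 over 14654 genes. SE values are the absolute log2 fold change over the root of F. CPM values are TMM-scaled. Correlations were tested by exact permutation, two-sided, over the 40320 orders of 8 livers (scipy 1.17.1). Coding identity came from global alignment of the annotated coding sequences nearest 543 bases. The procedure was tested on simulated counts. It found 91 of 100 changes of 2 on the log2 scale and 57 of 100 changes of 1. Of its 150 calls, 2 were of unchanged genes. Simulated livers of a group had the same expected level of each gene, unlike the Mup levels here.

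Every Mup member with a mean of at least 1 CPM was named, and at most 3 genes with the smallest p of each other list. Some items that this rule or the sequence search would name are not reported here. The members and lists were chosen with earlier results of these data known. Sums over members were not tested. Alternatives covered scaling, filter, DESeq2 1.42.0, limma-voom 3.58.1, the share's denominator, exon length, a sample-number block and leaving out each liver. Libraries of a group differed by far more than sampling noise (chi-square per degree of freedom of at least 41.8), so each was 1 replicate. Nothing in the labels gives the cage, litter or extraction batch, so p-values measure the spread between these 8 livers. Total counts of 24829693 to 37823155 set a floor of 3 counts at 0.0838 to 0.118 TMM-scaled CPM, and floors and Wilson intervals cover counting error only.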

Additional observations from a re-analysis of the deposited data

Results flagged for a closer look

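In the 5 WT livers, 4 of 35 values had 1 liver far from the others by Dixon's test at 95%, where chance gives about 1.75. WT 3 was high for Mup2 (35477 CPM, against 19348 to 22842 in the other WT livers), for Mup11 (34549 CPM, against 13594 to 19194) and for Mup18 (28084 CPM, against 11100 to 13624). These 3 are near-identical genes that share windows, and WT 3 also had the largest family share of all 8 livers. Mup-ps18 was high in WT 5, with 24.1 CPM against 0 to 0.105 CPM in the other WT livers. Skeletal muscle markers were also highest in WT 5, with a sum of 377 CPM against 8.88 to 283 CPM in the other WT livers. In WT 4, with 283 CPM of these markers, and in Rbfox2 KO 1, with 236 CPM, Mup-ps18 had 0 counts. The part of the markers in the Mup-ps18 value was not tested.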

How the results depend on the processing

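With edgeR, 0 genes and 0 Mup members were called under DESeq2 size factors, library totals, scaling without the Mup members, the replicate block, limma-voom and each of the 8 fits without 1 liver (0 to 0). Without the filter on low counts 6 genes were called, none of them a Mup member, and DESeq2 called 59 genes, of which 8 were Mup pseudogenes. Library totals moved the median of all genes to 0.11 on the log2 scale. The median log2 fold change of the tested members was -0.56, -0.93 with the replicate block, and -0.84 to -0.14 over the fits without 1 liver. The sample numbers did not pair the livers (same-number r of 0.163, 0.0484 and 0.170). Values near 0 changed sign for Mup7 with library totals (0.039), and for Mup3 with the replicate block (-0.19) and limma-voom (-0.087). Leaving out 1 liver gave ranges that crossed 0 for Mup7 (-0.58 to 0.51), Mup9 (-0.94 to 0.091), Mup11 (-0.78 to 0.023), Mup14 (-0.84 to 0.15), Mup15 (-0.83 to 0.29), Mup3 (-0.18 to 0.51), Mup6 (-0.64 to 0.052) and Mup-ps19 (-0.10 to 0.43), while the 13 tested plus-strand pseudogenes had negative values in every fit made, Mup-ps4 in the 5 such fits in which it passed the filter. The difference in family share ranged from -8.64 to 0.398 points, with its sign resting on Rbfox2 KO 1, and was 0.0734 points over the members with at least 95% private windows, an alternative chosen after seeing the data. The pseudogene share difference ranged from 0.00651 to 1.02 points, and the median r of the members from 0.772 to 0.927, with 0.947 for deviations from the genotype means, also chosen after seeing the data. Depth limits the plus-strand pseudogenes, of which a liver had 2 to 221 counts each.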
